A study of Mus musculus with 6 samples.

Results

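Axon guidance ligands and receptors were examined in cultured mouse cortical cells that had or had not been exposed to terahertz radiation. The members are the genes that the array design names as a semaphorin of classes 3 to 7, a plexin, a neuropilin, an Eph receptor, an ephrin, a Slit, a Robo, a netrin, Dcc or an Unc5 receptor, with at least 1 probe well above background on 3 or more of the 6 arrays. The rule itself uses no difference between the groups, but the members were chosen with earlier results of these data known. The rule found 69 genes of 26120 measured: 20 semaphorins, 11 plexins and neuropilins, 14 Eph receptors, 8 ephrins, 7 Slit and Robo genes, and 9 netrin, Dcc and Unc5 genes. All 69 genes named on the array had such a probe, and 150 of their 168 probes passed this filter on low signal.

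The 3 irradiated cultures received radiation at 3.1 THz, a band between microwaves and the infrared, in daily sessions of 3 hours that began on day 5 in vitro and ended on day 9. The 3 control cultures did not. Both groups were dissociated cerebral cortex from C57/B6 embryos at embryonic day 16, grown in Neurobasal medium with B27 plus and taken for RNA at day 12 in vitro, and each culture was read on its own 1-colour array from 0.2 µg of RNA. The labels number the cultures 1 to 3 in both groups without saying whether they came from separate dissections, so a p-value reflects spread that may be no more than technical.

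Growing axons steer by cues that attract or repel the growth cone at their tip. Semaphorins signal through plexins, and most of the secreted class 3 members use neuropilins as co-receptors. Ephrins and Eph receptors are both bound to cells, so contact between cells can send signals both ways. Slits repel axons through Robo receptors, while netrins attract them through Dcc and repel them through Unc5 receptors. In the cortex these families are known for layering, for the crossing of the corpus callosum, for the sorting of thalamic and cortical axons and, later, for the shaping of synapses.

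Levels below are log2 signals relative to the array's 75th percentile, so 0 marks that percentile. They compare 1 probe between arrays and cannot rank different genes. The 75th percentile itself lay between 635 and 892 on the irradiated arrays and between 320 and 708 on the control arrays in linear signal units, with control 1 lowest. Between 64.9% of spots on control 1 and 74.7% on irradiated 1 were well above background. The 6 arrays shared 1 slide and 1 scan, which leaves no batch of that kind to test. All 15 neuronal markers were measured, as were all 19 microglial, all 12 astrocyte and 14 of 15 myelinating oligodendrocyte markers. In RNA from whole cultures, fewer cells of a type and less RNA per cell cannot be told apart.

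Of the 4 guidance genes with an unadjusted p under 0.05, 3 were read by probes built from a simple repeat of TG, and the repeats are shown here because those values turn on them. Each line gives 30 bases of the 60-base probe, from the file, 5′ to 3′, with the repeat in capitals. Positions are those in the file on mouse build mm9, and no annotation of exons or untranslated regions of that build was used.
Ephb3, chr16:21223165-21223224, plus strand: TGTGTGTGTGTGTGTGTGTGTGTGTGTGTG
Nrp2, chr1:62843061-62843120, plus strand: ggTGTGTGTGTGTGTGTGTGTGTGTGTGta
Sema4c, chr1:36605998-36606057, minus strand: aaTGTGTGTGTGTGTGTGTGTGTGttgtaa
The uninterrupted run is 32 bases long in the Ephb3 probe, 26 in the Nrp2 probe and 22 in the Sema4c probe. For contrast, other probes of Nrp2 and Sema4c, the Epha10 probe and the probes of Robo3 and Ntn5, on which later results rest, begin as follows and hold no such repeat.
Nrp2, second probe, chr1:62865129-62865188, plus strand: tgagccagatcacgggaactcgagagcttt
Sema4c, second probe, chr1:36606063-36606122, minus strand: tgcaaggaagaggtttcaagatgtgggcgt
Epha10, chr4:124563692-124563751, plus strand: aatcagaaagattgggcacatagtgaaatg
Epha10, second probe, chr4:124592897-124592956, plus strand: agaagccctccttagtgggatcagtgccct
Robo3, chr9:37223760-37223819, minus strand: cggttttagttgtcttgggaatcagagaac
Ntn5, chr7:52949867-52949926, plus strand: tgcttggacctgtgagccttataggttatt

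No guidance gene passed the test for irradiation. With limma's moderated test over all 26120 genes, 0 of 69 reached a Benjamini-Hochberg adjusted p under 0.05, as did 0% of all genes, and the smallest adjusted p among the guidance genes was 0.504. At an unadjusted p under 0.05, 4 of the 69 (5.8%) were counted, 1 higher (Epha10) and 3 lower (Ephb3, Nrp2 and Sema4c), beside 9.15% of all genes. That share was below the background, so it is no result about the guidance genes. With the replicate number as a block, again 4 were counted, beside 9.01% of all genes. The median difference, irradiated minus control, was -0.13 over the 69 genes and -0.13 over all genes. Of the 69 genes, 51 had a negative difference (73.9%), beside 65.8% of all genes. Quantile normalisation, which gives all arrays the same distribution, moved both medians to -0.05 and left 41 guidance genes below 0 and 28 above it, a split that therefore depended on the scaling.

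By family, the median differences were -0.13 for the semaphorins, -0.08 for plexins and neuropilins, -0.13 for Eph receptors, -0.25 for ephrins, -0.08 for Slit and Robo genes and -0.12 for netrins, Dcc and Unc5 receptors. No member of any family passed the adjusted threshold. The 28 genes outside the rule for named genes had differences between -0.51 for Sema3f and 0.53 for Sema4b, 18 of them negative, and in each of the 28 the irradiated and control arrays overlapped. Of the 8 ephrins, 7 had a negative difference, beside 65.8% of all genes. Under quantile normalisation 7 were negative too, beside 14814 of all 26120 genes, but they were not the same 7. The positive one was Efna4 (0.02) as reported and Efnb3 (0.11) under quantile normalisation. The irradiated cultures lay wholly below the controls in 3 genes, beside 12.1% of all genes, and wholly above them in 2 genes, Epha10 and Ntn3, beside 3.86% of all genes.

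**Figure D1:**
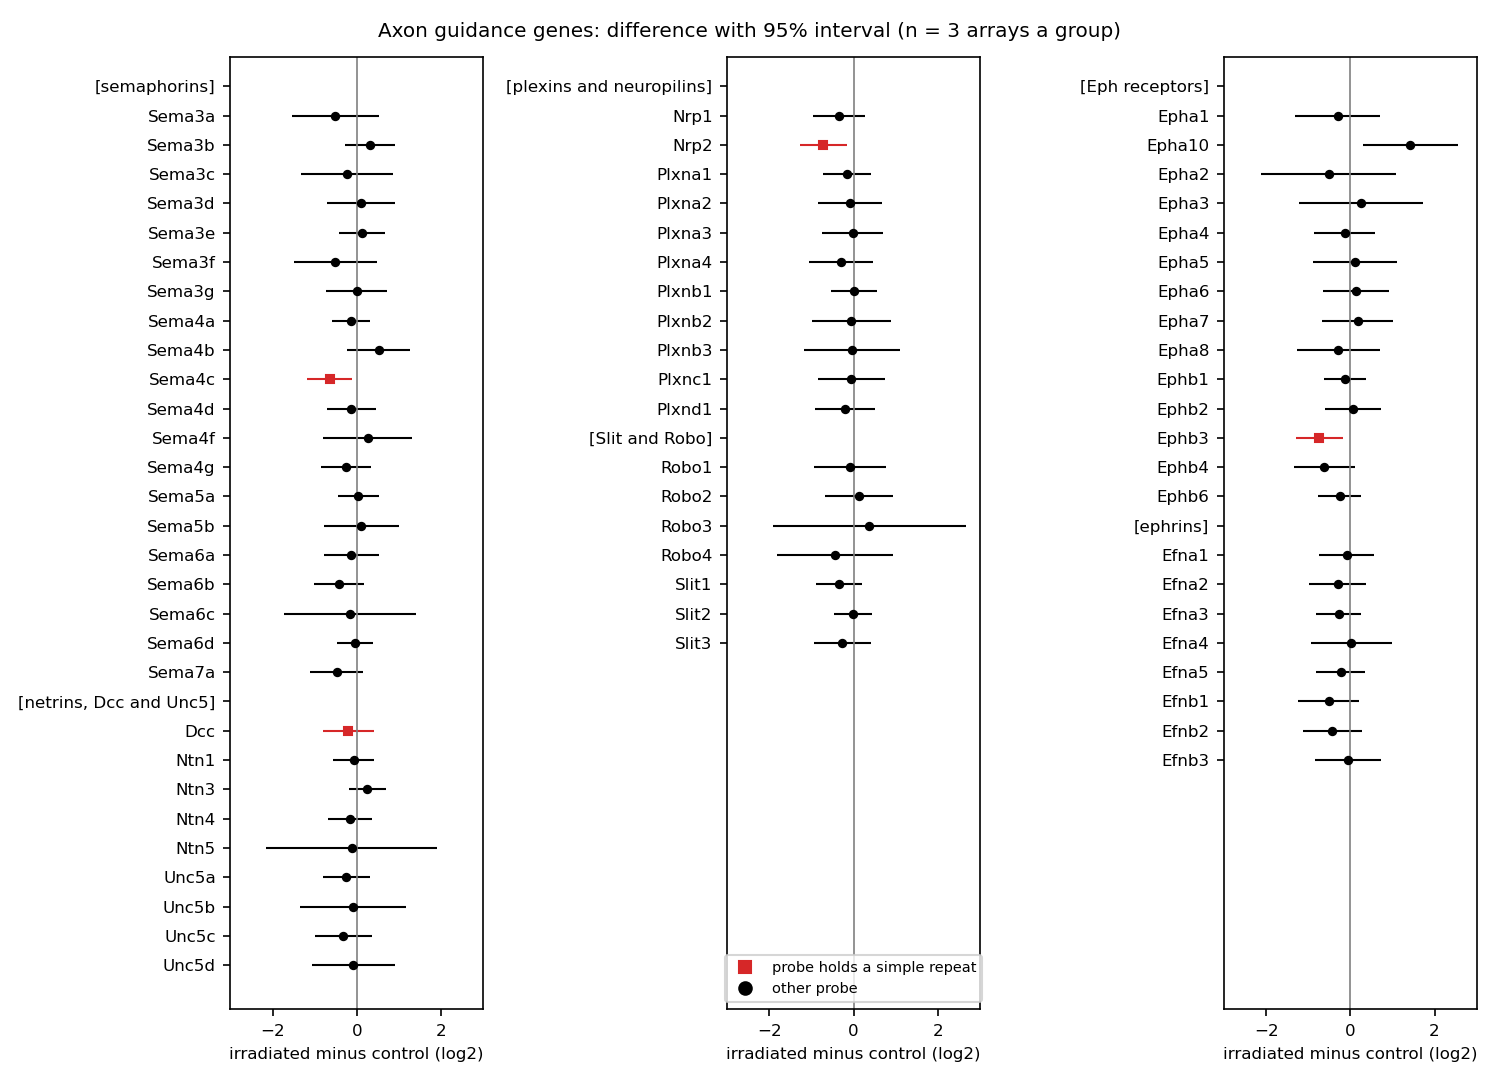
Difference in level, irradiated minus control on the log2 scale (horizontal axis), for each of the 69 guidance genes by family, with the 95% interval from limma (n = 3 arrays a group). Ephb3, Nrp2 and Sema4c, whose probes hold a TG repeat, and Dcc, whose probe holds a GAA repeat, are red squares, and intervals of 4 genes leave out 0.

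The 3 lower genes shared 1 pattern over the arrays. Ephb3, a receptor for B-class ephrins, had levels of 6.26, 6.17 and 6.35 in irradiated cultures 1 to 3, against 7.17, 7.25 and 6.58 in control cultures 1 to 3. Its difference was -0.74, with a 95% interval of -1.30 to -0.18 and an adjusted p of 0.504 by limma. Nrp2, the co-receptor for class 3 semaphorins such as Sema3f, had 6.38, 6.24 and 6.47 in irradiated cultures, against 7.26, 7.31 and 6.68 in controls. Every irradiated array lay below every control array in both genes, and control 3 stood nearest to the irradiated arrays. Sema4c, a membrane-bound ligand of plexin B2, had 6.58, 6.55 and 6.71 in irradiated cultures, against 7.34, 7.53 and 6.90 in controls. The same order of arrays returned: irradiated 2 lowest, control 2 highest and control 3 lowest among the controls. Differences were -0.72 for Nrp2 and -0.64 for Sema4c, with 95% intervals of -1.27 to -0.17 and -1.17 to -0.12.

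This pattern was common to the probes with a TG repeat, whatever gene they were named for. On the whole array, 46 of 56605 probes (0.0813%) held 10 or more TG units in a row on the strand of the probe, and 45 of them passed the filter on low signal. Their median levels were 6.38, 6.32 and 6.47 on irradiated arrays 1 to 3, against 7.21, 7.31 and 6.68 on control arrays 1 to 3. All 45 were lower in irradiated cultures, by a median of -0.72 and between -0.89 and -0.58. All 45 had an unadjusted p under 0.05, beside 9.02% of all probes, so the 3 guidance genes differed as the other TG probes did. With quantile normalisation all 45 stayed lower, but the median difference shrank to -0.28. The 29 probes with 10 or more CA units, the same repeat read from the other strand, had a median difference of 0.06, and 0 of 29 had an unadjusted p under 0.05 by limma. Bright probes as a whole were also lower: the median difference was -0.43 over the 689 genes with a mean level above 6 and -0.23 over the 1943 genes between 4 and 6. Whether these probes measured the named transcripts was not tested.

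Other probes of the same genes did not follow. The second probe of Nrp2, 22.1 kb away, had 2.33, 2.67 and 3.11 in irradiated cultures, against 2.68, 2.77 and 3.12 in controls, and its groups overlapped. Sema4c's second probe, named for the same transcript, had -1.75, -2.54 and -2.61 in irradiated cultures, against -3.11, -2.80 and -2.34 in controls. There irradiated 1 was highest and control 1 lowest, and the groups overlapped. The differences of these 2 probes were -0.15 and 0.45, with 95% intervals of -0.78 to 0.47 and -0.30 to 1.19. The remaining kept probe of Sema4c gave -0.27 and that of Nrp2 gave 1.21, neither with an unadjusted p under 0.05. Ephb3 had no other probe, so its only reading here is that of the repeat probe. With repeat probes and probes placed on another chromosome left out, an alternative chosen after seeing the data, 68 guidance genes remained and 1 of them, Epha10, had an unadjusted p under 0.05, beside 8.92% of all genes.

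**Figure D2:**
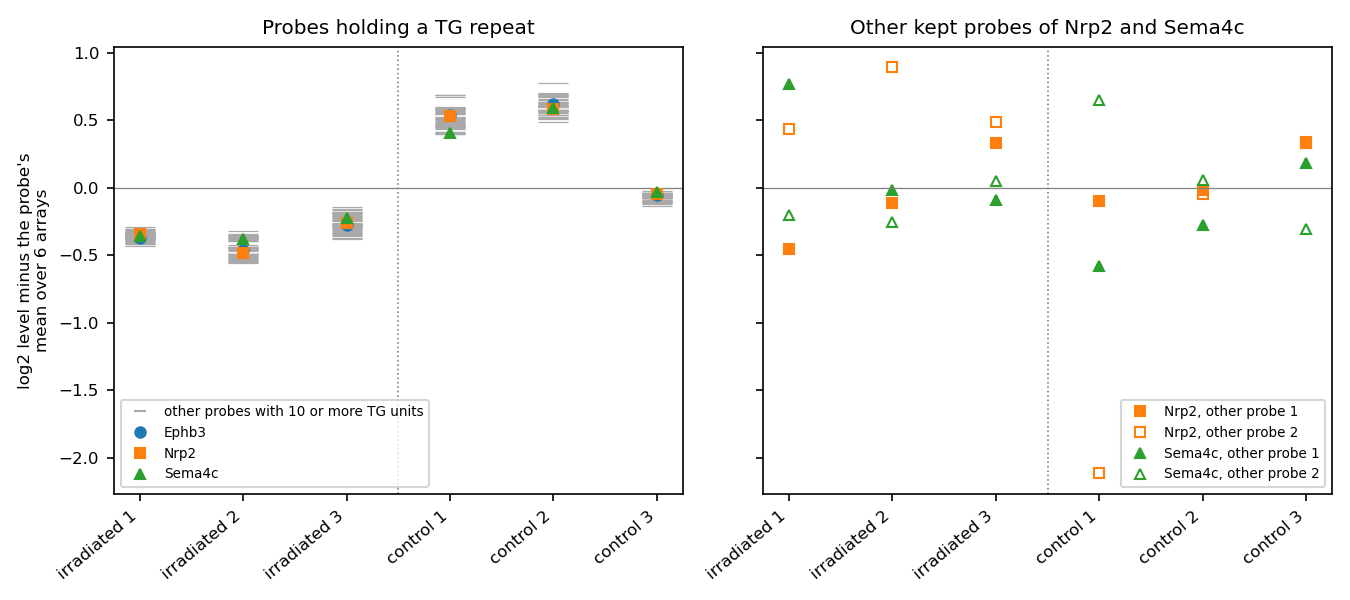
Level of each probe minus its own mean over the 6 arrays (log2, vertical axis) on irradiated arrays (left) and control arrays (right of the dotted line). In the left panel the TG-repeat probes of Ephb3, Nrp2 and Sema4c lie within the band of the other TG-repeat probes (grey dashes), and in the right panel the other probes of Nrp2 and Sema4c, filled for the brighter one, do not keep to that order.

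Epha10, an Eph receptor that lacks kinase activity, was the 1 guidance gene with an unadjusted p under 0.05 and a higher level. It had -1.66, -3.17 and -2.88 in irradiated cultures, against -4.44, -3.22 and -4.32 in controls. The irradiated arrays lay above the controls, but irradiated 2 exceeded control 2 by little. The difference was 1.43, which is 2.69-fold, with a 95% interval of 0.29 to 2.56 and an adjusted p of 0.504 by limma. A second probe, 29.2 kb away, had -4.12, -4.48 and -4.42 in irradiated cultures, against -3.47, -4.13 and -4.35 in controls, and went the other way with overlapping groups. Without irradiated 1, without control 1 or without control 3, Epha10 was among the genes that no longer had an unadjusted p under 0.05. Its difference was 0.44 with normexp background correction, 0.54 with the mean of both probes and 0.75 without both arrays numbered 1.

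Among the semaphorins, ligands on other cells or in the medium, differences stood between -0.64 and 0.53 (Sema4b). Sema7a, a membrane-anchored semaphorin that promotes axon growth through integrins, had 3.54, 3.46 and 4.18 in irradiated cultures, against 4.47, 3.995 and 4.15 in controls. Sema6b, a transmembrane ligand of A-class plexins, had 2.23, 2.19 and 2.50 in irradiated cultures, against 3.18, 2.45 and 2.57 in controls. In both genes control 1 was the highest array and irradiated 3 reached into the range of the controls, so the groups overlapped. Sema3a, the secreted repellent of cortical axons, had -1.61, -2.76 and -1.09 in irradiated cultures, against -1.58, -1.47 and -0.88 in controls. Irradiated 2 was lowest by a wide margin and irradiated 3 lay above 2 of the 3 controls. The differences were -0.48 for Sema7a, -0.43 for Sema6b and -0.51 for Sema3a, each with a 95% interval that includes 0. The other kept probe of Sema3a gave -0.05.

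On the receptor side, Nrp1, which binds Sema3a, had 3.14, 3.38 and 3.98 in irradiated cultures, against 3.87, 3.69 and 3.99 in controls. Plxna4, a plexin that pairs with Nrp1 for Sema3a, had 3.02, 3.62 and 4.21 in irradiated cultures, against 3.71, 3.97 and 4.07 in controls. Irradiated 1 and 2 were lowest in both genes, and irradiated 3 lay above at least 2 of the 3 controls. The differences were -0.35 and -0.30, with 95% intervals of -0.97 to 0.26 and -1.05 to 0.45. Neither passed the test, and the 7 probes of Nrp1 differed by between -0.35 and 1.55, so the mean of its kept probes gave 0.62.

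Among the Eph receptors, Ephb4, a receptor of ephrin-B2 best known from blood vessels, had -2.99, -2.92 and -2.44 in irradiated cultures, against -1.77, -1.98 and -2.75 in controls. The groups overlapped through irradiated 3 and control 3, and the difference was -0.62, with a 95% interval of -1.35 to 0.11. Epha4, a receptor for both classes of ephrin that is active in cortical neurons, had 2.95, 3.82 and 3.80 in irradiated cultures, against 3.29, 3.80 and 3.89 in controls. Epha7, a receptor for A-class ephrins, had 0.81, 1.33 and 1.39 in irradiated cultures, against 0.27, 1.20 and 1.54 in controls. In both the arrays numbered 1 were lowest, in either group, and the differences of -0.14 and 0.18 were small beside that spread.

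Ephrins, the ligands of these receptors, had no member whose groups were apart. Efnb1, a transmembrane ephrin of dividing progenitors, had 0.98, 0.42 and 1.21 in irradiated cultures, against 1.88, 1.19 and 1.09 in controls. Efnb2, the partner of Ephb4, had 1.44, 1.16 and 1.79 in irradiated cultures, against 2.41, 1.50 and 1.76 in controls. Control 1 was highest and irradiated 2 lowest in both. Efnb1 differed by -0.52 and Efnb2 by -0.43, with 95% intervals of -1.24 to 0.21 and -1.13 to 0.28. Efna3 had 0.57, 0.64 and 1.03 in irradiated cultures, against 1.28, 0.83 and 0.95 in controls. Efna5, a repellent for thalamic and cortical axons, had 0.49, 0.14 and 0.24 in irradiated cultures, against 0.94, 0.27 and 0.33 in controls. The groups overlapped in both of these A-class ephrins, with differences of -0.27 and -0.22. The 3 probes of Efna3 disagreed, from -0.67 to 0.29.

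Slit ligands and their receptors gave small differences too. Slit1, a repellent made by neurons, had 2.81, 3.23 and 3.48 in irradiated cultures, against 3.40, 3.56 and 3.60 in controls. Slit3 had 0.07, -0.32 and -0.10 in irradiated cultures, against 0.69, -0.31 and 0.07 in controls. In Slit1 irradiated 3 lay above control 1, while in Slit3 control 1 stood alone at the top. Their differences were -0.35 and -0.26. Robo1 and Robo2, the main Slit receptors of cortical neurons, differed by -0.08 and 0.12, and Robo4, a relative found on endothelial cells, differed by -0.43. Robo4 was well above background on 5 of the 6 arrays, with levels of -6.15, -3.77 and -4.40 in irradiated cultures, against -4.67, -3.90 and -4.46 in controls. Without irradiated 1 its difference was 0.26, so that array alone set its sign.

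In the netrin family, Ntn3 was the 1 gene whose irradiated arrays all lay above the controls. It had -1.27, -1.07 and -1.37 in irradiated cultures, against -1.53, -1.51 and -1.42 in controls, and the difference of 0.25 had a 95% interval of -0.19 to 0.69, which includes 0. Its second probe gave -0.01. Ntn1, the best-known netrin, a secreted attractant, had -1.10, -0.73 and -1.004 in irradiated cultures, against -0.92, -0.69 and -1.02 in controls, with groups that overlapped throughout. Unc5a and Unc5c, repulsive netrin receptors, differed by -0.24 and -0.31. The groups overlapped in both: Unc5a had 4.07, 3.87 and 4.44 in irradiated cultures, against 4.62, 4.11 and 4.37 in controls. Unc5c had 0.46, 0.75 and 1.42 in irradiated cultures, against 1.31, 0.97 and 1.29 in controls. The arrays irradiated 1 and irradiated 2 were lowest in Unc5c, and irradiated 3 was the highest of all 6.

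Dcc, the attractive netrin receptor, has a brightest probe that holds a GAA repeat, and the file places it on chromosome 7, which is not the chromosome of Dcc. It had 6.10, 6.16 and 6.64 in irradiated cultures, against 6.45, 6.84 and 6.21 in controls, and its difference of -0.20 is close to the median of -0.20 over the 14 probes on the array with 7 or more GAA units. The brightest other probe, named for the Dcc transcript of RefSeq, the reference set of curated transcripts, had -0.12, -0.22 and 0.11 in irradiated cultures, against -1.03, -0.44 and 0.35 in controls. There control 3 was highest and control 1 lowest, so the irradiated arrays lay inside the range of the controls. The 6 kept probes of Dcc differed by between -0.20 and 1.91.

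Such disagreement between probes was frequent. Of the 39 guidance genes with at least 2 kept probes, 27 had probes whose differences had opposite signs. No share over all genes is set beside this count, so it is only a description. Of the 150 kept probes, 18 had an unadjusted p under 0.05, which is 12%, beside 9.02% of all kept probes, and 0 passed an adjusted p under 0.05 by limma, the smallest being 0.520. Of these 18, 12 were higher and 6 lower, and 3 of the lower ones were the TG probes. Over all genes, each read by its brightest kept probe, 2.39% were higher and 6.76% lower at an unadjusted p under 0.05 by limma. No share by direction over all kept probes is given here, so the split of the 18 is only a description. One of the 12 higher probes, that of Slit2, passed the filter on low signal only through the irradiated arrays, so its p is no test. It stays in these counts, as probes of that kind stay in the share over all kept probes. The higher ones were mostly of 1 kind: 11 of 12 were designed on an accession outside RefSeq's curated transcripts, such as an Ensembl transcript or a cDNA clone. Of all 40552 kept probes, whatever their p, 15046 were of that kind. In 11 of the 12 the lowest level was on control 1. The 12 were picked for being higher in irradiated cultures, which favours a control array as the lowest. No share over all probes picked in that way is given here.

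Several of these probes lay far from the one that stands for the gene. A Robo2 probe 455 kb away had -0.57, -0.43 and -0.53 in irradiated cultures, against -3.48, -1.04 and -1.35 in controls, and another, 150 kb away, had -2.24, -1.96 and -1.66 in irradiated cultures, against -4.43, -2.13 and -3.11 in controls. In both, control 1 was far below the rest, and in the nearer one control 2 exceeded irradiated 1, so its groups overlapped. A Nrp1 probe 138 kb away had -0.21, -0.14 and 0.51 in irradiated cultures, against -2.47, -0.42 and -1.07 in controls. An Unc5c probe 153 kb away had -3.75, -3.98 and -3.78 in irradiated cultures, against -5.93, -4.38 and -4.94 in controls. Here too control 1 was lowest and the groups did not overlap, but control 1 of the Unc5c probe was not well above background. The differences were 1.45 and 1.27 for the Robo2 probes, 1.37 for Nrp1 and 1.25 for Unc5c, while the probes that stand for these genes gave 0.12, -0.35 and -0.31. These probes were picked for their values and carry no test of their own.

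Over all kept guidance probes, the 40 designed on other accessions had a median difference of 0.50, and 28 of them (70%) were higher. Over all 15046 such kept probes the median was -0.03 and 48.4% were higher. The 40 include the Slit2 probe that passed the filter only through the irradiated arrays. The 110 on RefSeq transcripts had a median of -0.06 and 37.3% higher, beside -0.06 and 41.6% over all 25506 of that kind. Among the dimmest probes, with a mean level of at most -2, the medians were 0.63 for the 27 guidance probes on other accessions and 0.04 for all 9878 of that kind. Quantile normalisation left the median of the 40 at 0.51, beside 0.0003 over all such probes. Background correction by normexp took it to -0.09, with 14 of 40 higher, beside -0.33 and 20.9% over all such probes. Normexp followed by quantile normalisation gave 0.15, beside -0.002, so the sign of this median depended on the background correction and the scaling. Without control 1 the median was 0.14, beside -0.08 over all such probes. Without both arrays numbered 1 it was 0.23, beside -0.05. Control 1 was the lowest of the 6 arrays for 24 of the 40 (60%), beside 38.7% of all such probes.

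**Figure D3:**
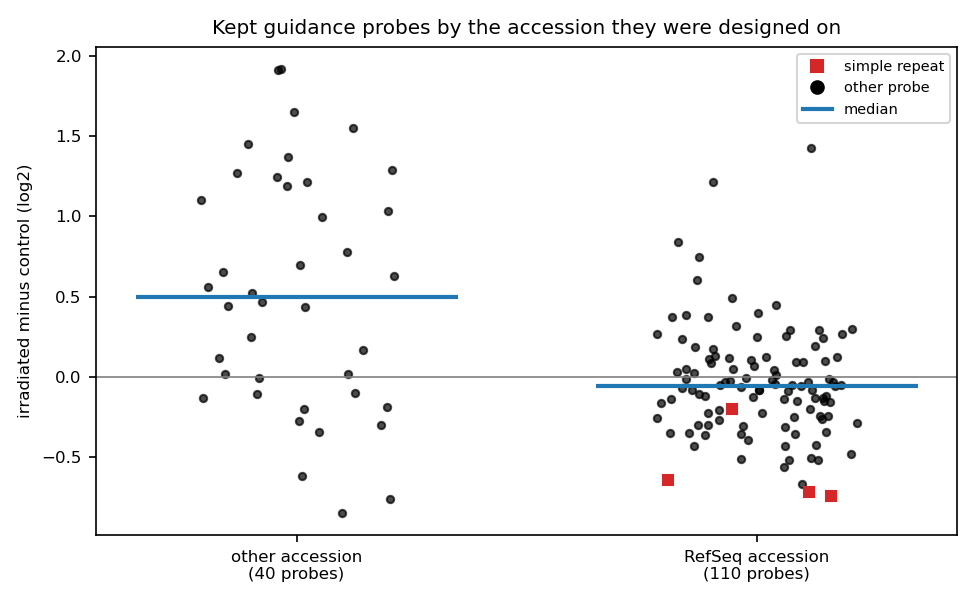
Difference, irradiated minus control on the log2 scale (vertical axis), of each of the 150 kept guidance probes, split by whether the probe was designed on another accession (left, 40 probes) or a RefSeq transcript (right, 110 probes). Blue lines mark the medians of 0.50 and -0.06, and red squares are the 4 probes that hold a simple repeat.

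Slit2 shows the limit of such dim probes. Its probe on an Ensembl transcript had -5.38, -5.53 and -5.25 in irradiated cultures, against -6.85, -6.92 and -8.14 in controls, and was well above background on 3 irradiated arrays and on 0 control arrays. This probe passed the filter only through the irradiated arrays, so it is given no test, and the control level is only a bound, so it is given no fold change. The probe that stands for Slit2, on a RefSeq transcript, had 0.37, 0.21 and 0.37 in irradiated cultures, against 0.25, 0.24 and 0.51 in controls. The groups overlapped there, and the difference was -0.01, with a 95% interval of -0.46 to 0.43.

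More guidance genes were counted for the replicate number than for irradiation. Same-numbered cultures of the 2 groups deviated together: over the 69 genes, the deviations from the group means correlated at 0.77 for cultures numbered 1, 0.58 for those numbered 2 and 0.48 for those numbered 3. Over all genes these correlations were 0.53, 0.42 and 0.22. In a model with group and number, limma's moderated F test of the number passed an adjusted p under 0.05 for 2 of the 69 genes, Robo3 and Ntn5, beside 0.624% of all genes. At an unadjusted p under 0.05 it counted 25 of the 69 (36.2%), beside 15.9% of all genes. Among genes with a mean level above 0 the shares were 35.4% of 48 guidance genes and 11.3% of all 11328. This excess is a description, since the genes share the same 6 arrays. What a number stands for (a dissection, a day, a plating) is not given in the labels.

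Robo3, the receptor that lets commissural axons cross the midline, had the largest F. It had -1.35, 1.40 and 0.45 in irradiated cultures 1 to 3, against -2.09, 1.34 and 0.13 in control cultures 1 to 3. Cultures numbered 1 were far below the others in both groups and those numbered 2 were highest, with an adjusted p of 0.0444 by limma. Its difference between irradiated and control cultures was 0.38, with a 95% interval of -1.92 to 2.67. A second, dim probe of Robo3 had -5.11, -4.49 and -5.01 in irradiated cultures, against -4.33, -4.98 and -4.98 in controls, and did not follow the number. Ntn5, a netrin relative, ran the other way: it had -2.64, -4.76 and -4.82 in irradiated cultures, against -2.20, -4.68 and -4.98 in controls, with both cultures numbered 1 highest and an adjusted p of 0.0469 by limma. Both calls were lost without irradiated 3 (smallest adjusted p 0.150), without control 1 (0.0668) or without control 3 (0.156). The call on Ntn5 was also lost with normexp (0.165), quantile normalisation (0.0603) and the deposited table (0.0599), and that on Robo3 with the mean of its kept probes (0.0883). Without the filter on low signal both were lost, at adjusted p-values of 0.135 for Robo3 and 0.138 for Ntn5.

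The genes with the next largest F, which did not pass the adjusted threshold, fell on both sides. Sema6c, a transmembrane semaphorin, had 1.03, 2.86 and 2.76 in irradiated cultures, against 1.12, 3.10 and 2.87 in controls. Sema3c, a secreted semaphorin that guides callosal axons, had 1.29, 2.46 and 2.53 in irradiated cultures, against 1.48, 2.80 and 2.66 in controls. Both were lowest on the arrays numbered 1, at adjusted p-values of 0.0541 and 0.0959 by limma. Sema6c passed with normexp (0.0379), and normexp with quantile normalisation gave adjusted p-values of 0.0105 for Sema6c and 0.0232 for Sema3c. The second probe of Sema6c, 0.708 kb away, had -1.13, 0.09 and -0.23 in irradiated cultures, against -0.08, -0.01 and -0.14 in controls, where the control arrays showed no such drop. Unc5b, a netrin receptor also found on endothelial cells, had 0.91, -0.73 and -0.06 in irradiated cultures, against 1.03, -0.63 and -0.02 in controls. Its second probe had -0.70, -2.33 and -1.57 in irradiated cultures, against -0.91, -2.33 and -1.51 in controls. In both probes of Unc5b the arrays numbered 1 were highest and those numbered 2 lowest, and the adjusted p of the brighter one was 0.0755 by limma and 0.0186 with normexp and quantile normalisation.

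Both arrays numbered 1 lay below the other 4 in 19 of the 69 genes (27.5%), beside 18.4% of all genes, and above them in 14 (20.3%), beside 13.1%. Among the genes with a mean level above 0, both were below in 14 of 48 guidance genes (29.2%), beside 22.7% of all such genes, and above in 8 (16.7%), beside 12.6%. The lower ones include all 4 Robo receptors, 5 of the 14 Eph receptors, 2 ephrins, 5 semaphorins and 3 plexins. Robo1 had 1.54, 2.26 and 2.36 in irradiated cultures, against 1.47, 2.39 and 2.55 in controls. Robo2 had 1.55, 2.10 and 2.11 in irradiated cultures, against 1.19, 1.81 and 2.40 in controls. Epha5, which cortical neurons use to read A-class ephrins, had 2.49, 3.45 and 3.78 in irradiated cultures, against 2.53, 3.16 and 3.72 in controls. On the arrays numbered 1 these receptors were lower than on the other arrays of either group. Epha8 had -0.89, 0.19 and 0.48 in irradiated cultures, against -0.38, 0.55 and 0.48 in controls. Efnb3, an ephrin of the midline, had 2.75, 3.67 and 3.62 in irradiated cultures, against 2.93, 3.57 and 3.69 in controls. Sema4f had 0.36, 1.43 and 1.43 in irradiated cultures, against 0.20, 0.59 and 1.63 in controls. In Sema4f control 2 lay near the arrays numbered 1, while Epha8 and Efnb3 kept the others together. Plxnc1, the receptor of Sema7a, had 0.30, 0.83 and 1.28 in irradiated cultures, against 0.35, 0.93 and 1.28 in controls, lowest on the arrays numbered 1 and highest on those numbered 3.

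On the higher side were 4 semaphorins, 3 plexins, 3 ephrins, Epha2, Slit3, Ntn5 and Unc5b. Some margins were thin: irradiated 1 had 0.0701 in Slit3, against 0.0691 on control 3, and -0.562 in Sema3f, against -0.569 on control 2. Sema6d, also counted here, had an F of 0.32 for the number. Plxnb2, a receptor of class 4 semaphorins found on many dividing and glial cells, had 3.43, 2.56 and 2.49 in irradiated cultures, against 3.60, 2.59 and 2.42 in controls. Plxnb3, a plexin known from oligodendrocytes, had 1.72, 0.71 and 1.42 in irradiated cultures, against 2.11, 0.32 and 1.52 in controls. In Plxnb3 the arrays numbered 2 were lowest in both groups, while in Plxnb2 those numbered 2 and 3 lay together. Epha2, an Eph receptor of epithelia and progenitors, had -3.36, -5.07 and -4.38 in irradiated cultures, against -2.29, -4.46 and -4.51 in controls. Efna1 had -0.51, -0.91 and -1.21 in irradiated cultures, against -0.42, -0.83 and -1.11 in controls. Efna4 had -3.71, -4.05 and -4.74 in irradiated cultures, against -3.71, -3.90 and -4.96 in controls. Both A-class ephrins were highest on the arrays numbered 1 and lowest on those numbered 3.

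Markers of other cells moved with the number as well. The 19 microglial markers averaged 1.69, -0.40 and -0.89 relative to their own means on irradiated arrays 1 to 3, against 1.29, -0.63 and -1.08 on control arrays 1 to 3. The 14 myelinating oligodendrocyte markers averaged 0.95, -0.79 and -0.11 on irradiated arrays, against 0.86, -0.95 and 0.01 on control arrays. The 12 astrocyte markers averaged 0.81, -0.19 and -0.62 on irradiated arrays, against 0.73, -0.26 and -0.50 on control arrays. These 3 glial lists were highest on the arrays numbered 1 in both groups, as were Ntn5, Unc5b and Plxnb2. This was not particular to glia. The 10 measured endothelial and pericyte markers were highest there too, at 0.51, 0.24 and -0.75 on irradiated arrays, against 0.53, 0.17 and -0.72 on control arrays. The 9 fibroblast and meningeal markers, at -0.06, 0.30 and -0.53 on irradiated arrays, against 0.32, 0.30 and -0.35 on control arrays, were highest on irradiated 2 and control 1. The 15 neuronal markers averaged -0.21, -0.03 and 0.16 on irradiated arrays, against -0.13, -0.02 and 0.20 on control arrays, and the 8 markers of oligodendrocyte precursors averaged -0.33, 0.11 and 0.19 on irradiated arrays, against -0.27, -0.02 and 0.29 on control arrays. The means of both lists were lowest on the arrays numbered 1, as were Robo1, Epha5 and Sema3c. Their members did not all go that way. Stmn2 and Gpr17 were lowest on the arrays numbered 1 in both groups, but Gad1 and Ptprz1 were highest there in both. In either list 0 genes had an adjusted p under 0.05 for the number by limma. In summed signal, on the log2 scale, the microglial list lay between 5.92 and 6.67 on irradiated arrays and between 5.67 and 6.76 on control arrays. That sum weighs bright probes most. The brightest of the list, Siglech, had 5.09, 5.24 and 5.53 on irradiated arrays, against 5.47, 5.99 and 5.04 on control arrays. Siglech did not follow the number, while 9 of the 19 microglial markers had an adjusted p under 0.05 for it by limma. The part of these cells in the guidance results was not tested.

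**Figure D4:**
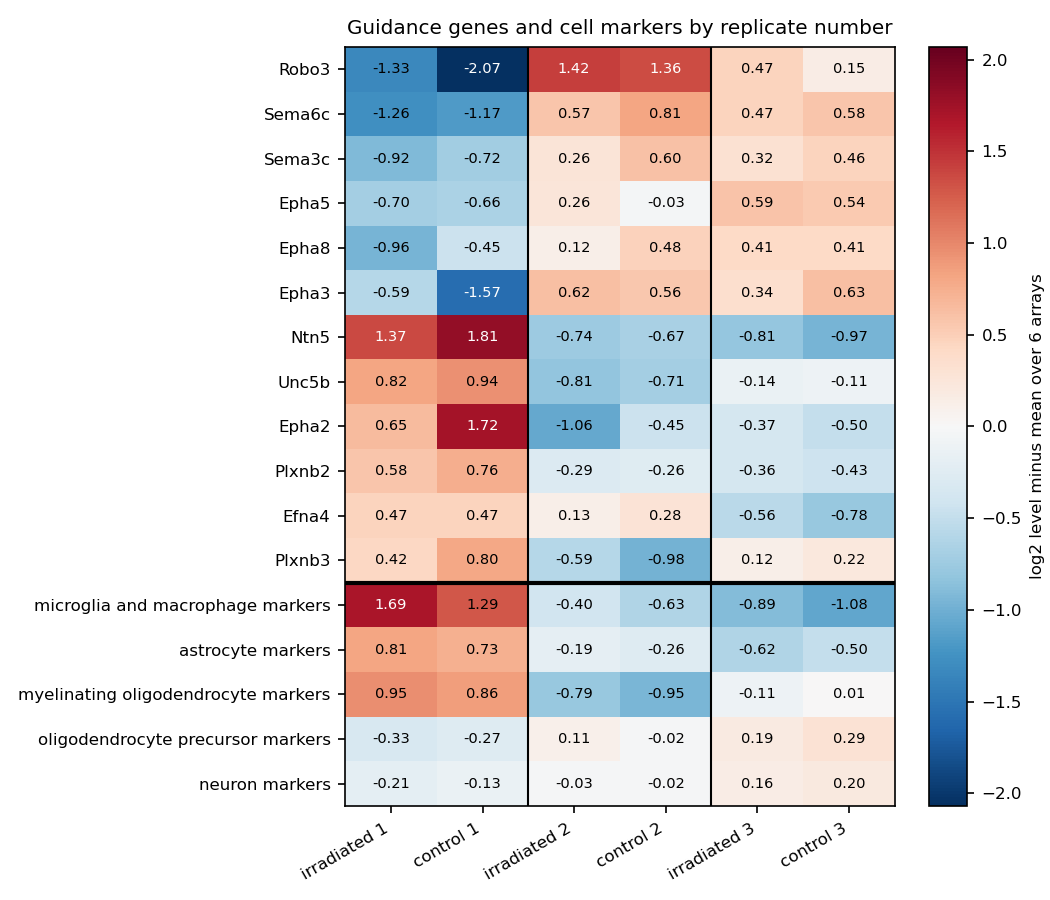
Level minus the gene's mean over the 6 arrays (log2, colour and printed value) for the 12 guidance genes with the smallest p for the replicate number, and below the black line for marker lists (mean of their genes), with arrays in columns by number, irradiated left of control. The 12 genes were picked by that p, so the likeness of same-numbered columns among them follows from the choice and is no evidence of its own. The arrays numbered 1 stand apart in opposite directions for Robo3 (-1.33 and -2.07) and Ntn5 (1.37 and 1.81).

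Other genes of axon guidance, from 3 further lists, gave 0 calls as well. Of 36 further ligands and receptors, such as those of the repulsive guidance, Hedgehog and Wnt families, 34 were measured, 0 passed the adjusted threshold by limma, and 1 was higher and 0 lower at an unadjusted p under 0.05, beside 2.39% of all genes higher and 6.76% lower, with a median difference of -0.07. The higher one was Ptch1, the Hedgehog receptor, with -1.54, -1.93 and -1.68 in irradiated cultures, against -2.64, -2.17 and -2.53 in controls, and no overlap. Nell2, a secreted ligand of Robo3, had 2.996, 3.28 and 4.16 in irradiated cultures, against 4.92, 4.07 and 4.05 in controls, and Rgmb, a repulsive guidance molecule, differed by -0.30. In Nell2 irradiated 3 lay above 2 controls. All 21 guidance adhesion molecules were measured, with 0 at an unadjusted p under 0.05 by limma, beside 9.15% of all genes, and a median of -0.06, and among their 3 smallest p-values were those of Ptprs (-0.27) and Cdh2 (-0.20). Of 60 genes that carry guidance signals inside the cell, 0 were higher and 3 lower at an unadjusted p under 0.05, a share below the 6.76% of all genes that were lower, again with 0 past the adjusted threshold and a median of -0.11. The 3 were Srgap2, which acts below Slit and Robo, at -0.84, the actin-severing Cfl1 at -0.83 and the exchange factor Vav2 at -0.80. Srgap2 had 2.54, 2.76 and 2.75 in irradiated cultures, against 3.55, 3.98 and 3.06 in controls, all irradiated arrays below all controls.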

How the data were processed

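RNA from 3 irradiated and 3 control cultures was read on 1-colour Agilent arrays. The deposited scanner output gives an intensity for every spot. The submitters' processing notes name Agilent Feature Extraction, version 10.7.1.1, as its source. Per the file headers its processed intensity is linear, has background subtracted and is not scaled between arrays. A second deposited table holds log2 values with column medians of 5.90 on every array. Its values follow the scanner signal in the same direction, and how it was made is not stated in the labels or headers. It served only as an alternative. Its results nearly equalled those with quantile normalisation, with an F for the replicate number of 116.3 against 116.4 for Robo3 and 55.04 against 55.01 for Ntn5. The deposited table and quantile normalisation are therefore not independent alternatives.

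Spots flagged as outliers were left out, log2 signals were averaged over the spots of a probe, and the array's 75th percentile over probes was subtracted. A probe was kept if well above background on at least 3 of 6 arrays, which left 40552 of 56605 probes. A gene is represented by its kept probe of highest mean, named through the reference gene table where its accession is listed. Of the 26120 genes counted, 134 are probes with no name but their ID. Simple repeats were runs of 20 or more bases, and the probe that stands for the gene held one in 4 guidance genes.

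Irradiated minus control differences came from lmFit and eBayes of limma 3.58.1, run in R 4.3.3, with Benjamini-Hochberg adjustment over all genes, and the script was tested on simulated data. The replicate number was tested by a moderated F test in a model with group and number, with 2 residual degrees of freedom. The number of arrays limits the precision. Deviations of same-numbered arrays from their group means correlated over all genes at 0.53, 0.42 and 0.22 for the numbers 1, 2 and 3. The labels do not say whether the numbers pair the samples. The main test left the numbers out, and an alternative took them as a block.

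The members and gene lists were chosen with earlier results of these data known. Genes given in each sample are, per family, the 3 with the smallest p for irradiation and the 3 with the largest F for the number, with 12 well-known members added, and, of 3 further guidance lists, the 3 genes of smallest p, of which 1 is not reported here. Alternatives were quantile normalisation, normexp background correction with an offset of 50, both together, the deposited table, no filter on low signal, the mean of a gene's probes, the number as a block, leaving out each array, leaving out both arrays numbered 1, and, added after seeing the data, leaving out repeat probes.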

Additional observations from a re-analysis of the deposited data

How the results depend on the processing

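No guidance gene passed an adjusted p for irradiation under any alternative, the smallest adjusted p lying between 0.257 (without control 3) and 0.989 (without both arrays numbered 1). The count at an unadjusted p under 0.05, 4 as reported, was 1 with quantile normalisation, with normexp and quantile normalisation, with the deposited table and without repeat probes, 0 without both arrays numbered 1, and 1 to 6 when leaving out 1 array, with 2 higher and 0 lower without control 2. The median difference stayed between -0.19 and -0.04. With the replicate number as a block, 0 genes passed the adjusted p and 4 the unadjusted one, beside 9.01% of all genes, and the block changed no other call. The count for the replicate number, 2 as reported, was 1 with quantile normalisation, with the deposited table and with the mean of the kept probes, 8 with normexp and quantile normalisation, 2 with normexp, where Sema6c passed and Ntn5 did not, 0 without the filter on low signal, and 0 to 2 when leaving out 1 array. The cause was not tested.

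Signs of some differences turned. With quantile normalisation the differences became 0.21 for Dcc, -0.0089 for Efna4, 0.11 for Efnb3, 0.032 for Epha4, 0.11 for Plxnb2, 0.049 for Plxnb3 and 0.013 for Robo1. With the deposited table they were 0.21, -0.0084, 0.11, 0.032, 0.11, 0.050 and 0.014 for the same genes in that order. With normexp they were -0.33 for Efna4, 0.038 for Efnb3, 0.022 for Plxnb2 and 0.021 for Plxnb3, and with normexp and quantile normalisation 0.21 for Dcc, 0.13 for Efnb3, 0.022 for Epha4, 0.11 for Plxnb2, 0.056 for Plxnb3 and 0.015 for Robo1. The mean of the kept probes gave 0.49 for Dcc, 0.62 for Nrp1, 0.11 for Nrp2, 0.10 for Plxnb3, 0.021 for Plxnc1, 0.35 for Robo1, 0.48 for Sema3c and 0.37 for Unc5c. Without repeat probes Dcc was 0.30 and Sema4c 0.45. Without both arrays numbered 1 the values were 0.018 for Efnb3, -0.0052 for Epha7, 0.043 for Ntn5, 0.016 for Plxnb2, 0.15 for Plxnb3 and 0.092 for Robo4.

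Leaving out 1 array at a time, 22 named genes changed sign. Their ranges were -0.27 to 0.10 for Efna1, -0.36 to 0.31 for Efna4, -0.28 to 0.25 for Efnb3, -0.97 to 0.22 for Epha2, -0.32 to 0.15 for Epha4, -0.20 to 0.48 for Epha5, -0.19 to 0.44 for Epha7, -0.59 to 0.12 for Epha8, -0.18 to 0.022 for Ntn1, -0.83 to 0.76 for Ntn5, -0.35 to 0.32 for Plxnb2, -0.53 to 0.36 for Plxnb3, -0.31 to 0.20 for Plxnc1, -0.42 to 0.17 for Robo1, -0.18 to 0.42 for Robo2, -0.56 to 1.15 for Robo3, -0.93 to 0.26 for Robo4, -0.64 to 0.18 for Sema3c, -0.036 to 0.68 for Sema4f, -0.77 to 0.45 for Sema6c, -0.49 to 0.0061 for Slit3 and -0.52 to 0.37 for Unc5b. Epha1, Robo4, Sema3g and Unc5d were not well above background on every array, so signal over background limits what can be said of them.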
